A study of Mus musculus with 16 samples.

Results

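The genes described here are 8 genes used to mark nonclassical monocytes, namely the transcription factor genes Nr4a1 and Pou2f2, the receptor genes Cx3cr1, Treml4 and Cd300e, the sialomucin gene Spn and the enzyme genes Ace and Eno3. They were picked by gene symbol, with earlier results of these data known. All 8 were among the 18670 named genes tested, and 11 probes of the array carried them. The study read Cy3-labelled RNA of CD11b+ cells, a selection that takes in monocytes, neutrophils, macrophages and some lymphocytes and dendritic cells, on 16 Agilent arrays of 1 colour. The mice, all labelled male, were STAT4-/-, STAT6-/-, HDC-/- or WT, and each genotype ate a high-fat diet for 3 months or a control diet. Each of the 16 combinations of genotype, tissue (spleen or bone marrow) and diet had 1 array, with RNA from a pool of 5 mice. There are no repeats of a combination, so the spread used in every test is that between arrays of different combinations, and their number limits the precision. Mouse age, strain and the extent of each deletion are not given in the sources used here.

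Nonclassical monocytes are the Ly6C-low monocytes that patrol the inner wall of small vessels, and in mice most arise from classical, Ly6C-high monocytes in marrow, blood and spleen. Their formation needs the orphan nuclear receptor encoded by Nr4a1, and their survival is helped by CX3CR1, the receptor of fractalkine. The spleen also keeps a reservoir of undifferentiated monocytes. Several of the genes are used by other cells too: Pou2f2 by B cells, Cx3cr1 by macrophages and natural killer cells, Spn by T cells and neutrophils, and Nr4a1 by many cells soon after stimulation. In a bulk sample, fewer cells of a type and less RNA per cell cannot be told apart.

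Levels are given as the log2 of the signal over the 75th percentile of the array, so that 0 is a signal at that percentile. The share of probes well above background was 59.7% to 85.3% per array, and the probe used for each of the 8 genes was well above background on all 16 arrays. The arrays were scanned in 4 sets of 4 that share a scan time, here called slides; both diets of a genotype and tissue lay on 1 slide, but each slide held 1 tissue. Hdc read 0.98 to 1.92 on the arrays labelled HDC-/- and 4.06 to 5.79 on the others with a usable spot, while Stat6 read 2.54 to 3.04 on those labelled STAT6-/- and 2.34 to 4.14 on the other arrays, so that these ranges overlapped. The Stat4 signal bore no mark of a loss on the arrays labelled STAT4-/- (0.41 to 3.51, against -0.89 to 1.33 on the other arrays), so every direction below for the STAT4-/- arrays rests on the label alone, and the Stat6 signal does not settle the STAT6-/- label. Y-linked genes averaged -8.39 to -5.57 on the control-diet arrays of HDC-/- and STAT4-/- mice and -0.61 to 0.35 on the other 12 arrays. Xist read -4.20 to -2.93 on those control-diet arrays and -9.26 to -5.44 on the other 12. Both signals go against the male label on those control-diet arrays of HDC-/- and STAT4-/- mice. The spleen array of STAT4-/- mice on high-fat diet correlated better with the marrow arrays than with its own tissue (mean r 0.970 and 0.947), as did the HDC-/- control marrow array with the spleen arrays (0.954 and 0.947). Itgam, which encodes CD11b, read 3.13 on the HDC-/- control spleen array and 6.05 on the STAT4-/- high-fat spleen array, the lowest and the highest of the 8 spleen arrays.

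Which of these genes set CD11b+ cells of the spleen apart from those of the marrow? Pou2f2, Cd300e, Eno3 and Nr4a1 were higher in spleen, Spn was lower, and Cx3cr1, Treml4 and Ace did not pass the test. With limma, 4 of the 8 were thus called higher and 1 lower at an adjusted p under 0.05, where 14.9% of all 28794 features (genes or unnamed probes) were called higher and 17.1% lower (32% in all). The median change of the 8 genes was 0.89 log2, against -0.06 over all features. Each slide held 1 tissue, so tissue and slide cannot be told apart.

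Pou2f2 encodes Oct2, an octamer-binding transcription factor. Its level in spleen ran from -2.51 (median -0.32) to 0.89, and in marrow from -4.11 (median -2.79) to -1.98. Of the 8 spleen arrays, 7 lay above every marrow array, the exception being STAT4-/- on high-fat diet, and spleen was higher in 8 of 8 pairs of the same genotype and diet. The change was 2.41 log2 (SE 0.30; 5.33-fold; limma adjusted p 0.000658), and the second Pou2f2 probe gave 2.60.

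Nr4a1 encodes the nuclear receptor Nur77. Spleen levels ran from 3.14 (median 5.40) to 5.89, and marrow levels from 2.54 (median 4.27) to 4.69. The groups overlapped at their ends: 6 spleen arrays lay above every marrow array, and spleen was higher in 7 of 8 pairs, the STAT4-/- high-fat pair being the other way. The change was 1.01 log2 (SE 0.32; 2.02-fold; limma adjusted p 0.0375). This call was lost, with adjusted p up to 0.0980 and changes of 0.71 or more, when 1 of 12 of the arrays was left out; it held only without the spleen arrays of STAT4-/- high-fat, STAT6-/- control or HDC-/- control mice or the HDC-/- high-fat marrow array.

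Among the receptor genes, Cd300e, which encodes an activating receptor of monocytes, changed most. It read -2.74 (lowest), -0.26 (median) and 1.76 (highest) in spleen, and -3.38, -2.83 and -2.20 in marrow. All spleen arrays but the STAT4-/- high-fat array lay above the whole marrow range. The change was 2.48 log2 (SE 0.40; 5.59-fold; limma adjusted p 0.00219; higher in 7 of 8 pairs).

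Cx3cr1 had no detectable difference between the tissues. Its spleen levels were spread widely, from -2.89 (median -0.69) to 2.64, while marrow levels lay between -1.31 (median -0.54) and 0.70. The highest spleen array (HDC-/- control) was above all marrow arrays and 3 spleen arrays were below all of them. The change was -0.06 log2 (95% interval -1.11 to 1.00; limma adjusted p 0.937; higher in 3 of 8 pairs). The 2 probes of the gene did not give the same difference: the dimmer one, well above background on 15 arrays, gave 1.1 log2 (SE 0.53, limma adjusted p 0.140).

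Treml4 encodes a receptor of the TREM family that binds dying cells and amplifies signals of Toll-like receptor 7. It read -0.27 (lowest), 0.10 (median) and 1.44 (highest) in spleen and -1.14, -0.17 and 0.11 in marrow, with 4 spleen arrays above the marrow range. The change of 0.58 log2 (SE 0.25; higher in 5 of 8 pairs) did not pass the test (limma adjusted p 0.108). Without the HDC-/- high-fat spleen array it was 0.78 log2 and passed (limma adjusted p 0.0356).

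Spn encodes CD43, a long sialomucin of the leukocyte surface that is high on nonclassical monocytes. It was the 1 gene of the 8 called lower in spleen, where it read from 2.69 (median 2.80) to 3.95, against 3.63 (median 3.86) to 4.31 in marrow. The lower 6 spleen arrays lay below every marrow array, while the spleen arrays of HDC-/- control and STAT4-/- high-fat mice lay within the marrow range. Spn fell by 0.79 on the log2 scale (SE 0.23; limma adjusted p 0.0265; lower in 7 of 8 pairs). The call was lost with quantile normalization (-0.50, limma adjusted p 0.100), with the second Spn probe (-0.61, limma adjusted p 0.101), and on leaving out 1 of 9 of the arrays, namely both WT spleen and both WT marrow arrays, the HDC-/- high-fat, STAT4-/- control and STAT6-/- high-fat spleen arrays, and the STAT4-/- control and STAT6-/- high-fat marrow arrays (-0.81 to -0.62, limma adjusted p up to 0.0771).

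Of the enzyme genes, Eno3, which encodes the beta subunit of enolase, read 0.10 (lowest), 1.79 (median) and 3.74 (highest) in spleen and -0.17, 0.36 and 0.73 in marrow. All spleen arrays but STAT4-/- high-fat were above the marrow range. The change was 1.42 log2 (SE 0.31; 2.67-fold; limma adjusted p 0.00812; higher in 7 of 8 pairs). Ace, which encodes angiotensin-converting enzyme, read -3.18, -1.85 and 0.79 in spleen and -3.31, -2.59 and -1.62 in marrow, and the groups overlapped, with 2 spleen arrays above the marrow range. Its change of 0.77 log2 (SE 0.40; higher in 6 of 8 pairs) did not pass the test (limma adjusted p 0.164); it was 1.11 log2 and passed without the HDC-/- high-fat spleen array (limma adjusted p 0.0424), and 0.44 log2 without the HDC-/- control spleen array.

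**Figure D1:**
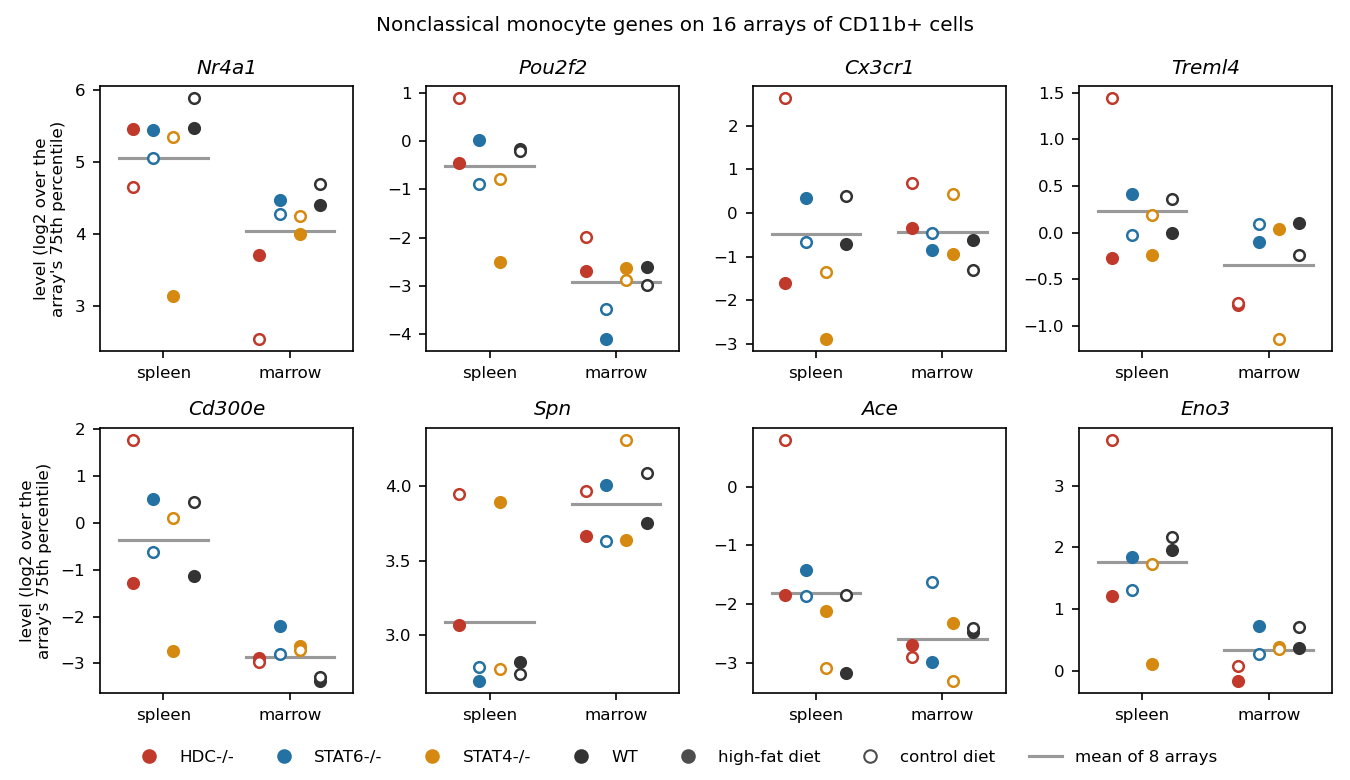
Level of each gene (log2 of signal relative to the array's 75th percentile, each panel on its own scale) on the 8 spleen and the 8 marrow arrays, coloured by genotype, filled for the high-fat diet and open for the control diet. Grey lines are means of 8 arrays; the open red point, HDC-/- spleen on control diet, is the highest spleen array for 7 of the 8 genes.

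**Figure D2:**
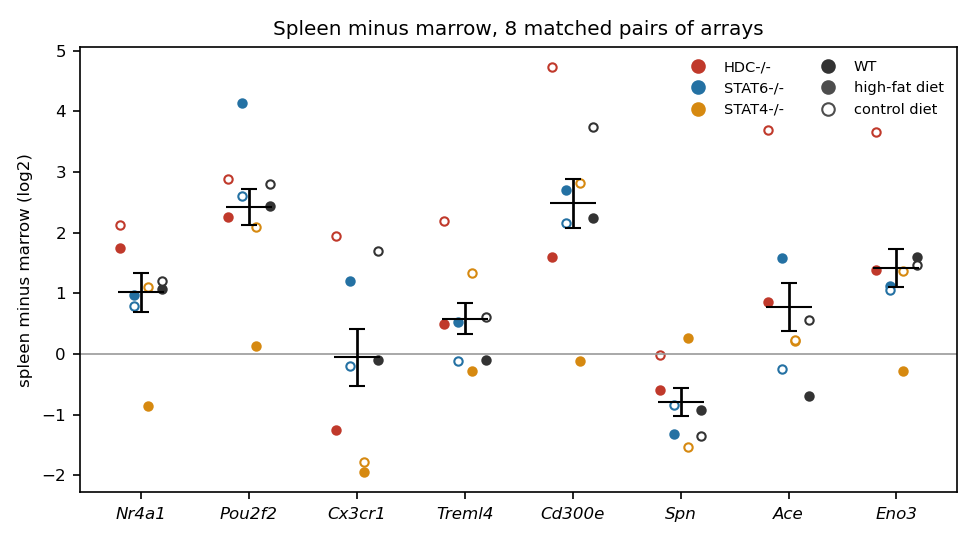
Difference between spleen and marrow (log2) for each gene, with 1 point for each of the 8 combinations of genotype and diet. Horizontal bars are the limma estimates and error bars their standard errors; Pou2f2 is above 0 in all 8 pairs, and Spn is below 0 in 7.

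A single array stood at the upper end for most of the genes. The HDC-/- control spleen array was the highest spleen array for 7 of the 8 genes, Nr4a1 being the exception, and the highest of all 16 arrays for 6. The STAT4-/- high-fat spleen array was the lowest spleen array for 5. These are the spleen arrays with the lowest and the highest Itgam, and the HDC-/- one also has low Y-linked signal. Pou2f2, Cd300e and Eno3 stayed above marrow by 2.28, 2.24 and 1.16 log2 without the HDC-/- control spleen array (limma adjusted p 0.00214, 0.00639 and 0.0170). Without both the STAT4-/- high-fat spleen and the HDC-/- control marrow array the changes were 2.70 log2 for Pou2f2, 2.71 for Cd300e, 1.57 for Eno3, 1.16 for Nr4a1 and -0.96 for Spn, with each called (limma adjusted p 0.000461 to 0.0123).

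Other genes linked to this monocyte subset were mixed between the tissues. Of a further list of 18 nonclassical monocyte genes, 15 were measured, of which 5 rose and 1 fell in spleen (median 0.41 log2), beside the 14.9% of all features called higher and the 17.1% called lower. The scavenger receptor gene Cd36 (2.75 log2, SE 0.43, limma adjusted p 0.00180), the Notch target gene Hes1 (2.73, SE 0.43, limma adjusted p 0.00198) and Itgax, which encodes CD11c (2.36, SE 0.38, limma adjusted p 0.00213), rose most, and the tetraspanin gene Cd9 fell by 0.87 (SE 0.23, limma adjusted p 0.0180). Csf1r, the receptor gene for the growth factor these cells live on, had a change of 0.53 log2 (SE 0.24) that did not pass (limma adjusted p 0.116). Notch2 signalling in response to the ligand Dll1 drives the conversion of classical into nonclassical monocytes in mice. Of 11 genes of the CX3CR1, CSF1R and Notch axis, 2 rose, Dll1 (1.91 log2, SE 0.28, limma adjusted p 0.00141) and the transcription factor gene Irf8 (1.75, SE 0.28, limma adjusted p 0.00208), and 4 fell, among them Jag1 (-1.65, SE 0.37), Il34 (-1.0, SE 0.28) and Notch2 (-0.93, SE 0.22), with limma adjusted p of 0.00941 to 0.0222. Of 12 genes that are NR4A partners or immediate early genes, Egr2 (1.13 log2, SE 0.25) and Egr3 (0.81, SE 0.25) rose and none fell, a share of higher calls near that of all features.

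Markers of other cells moved with the tissue as well. Of 10 measured classical monocyte genes, 5 fell in spleen and none rose (median -0.68 log2), the largest change being in the fibronectin gene Fn1 (-1.30, SE 0.33, limma adjusted p 0.0154). Of 11 measured mature neutrophil genes, 6 fell and none rose. All 10 B cell genes, all 10 natural killer cell genes, all 9 measured conventional dendritic cell genes, 8 of 9 T cell genes and 8 of 11 red pulp macrophage genes rose. The remaining T cell gene fell. In addition, 6 of 8 plasmacytoid dendritic cell genes and 4 of 6 erythroid genes rose. Of 6 eosinophil genes 4 fell, of 6 megakaryocyte and platelet genes 2 fell, and of 8 pro-B and pre-B cell genes 2 rose and 4 fell. Over all features, 14.9% were called higher and 17.1% lower. The mean level of the B cell list was -0.90 to 2.52 on the spleen arrays and -2.81 to -0.07 on the marrow arrays, and that of the natural killer cell list was -3.43 to 1.61 on the spleen and -4.17 to -1.23 on the marrow arrays. The dendritic cell gene Xcr1 was well above background on 7 spleen arrays and on no marrow array. Set against the dimmest signals well above background, its mean was at least 4.99-fold higher in spleen. Xcr1 passed the filter on dim features through spleen arrays alone, so no p-value is given for it. Xcr1 is among the 9 conventional dendritic cell genes counted above, and its call there carries no weight. The part of these other cells in the differences of the 8 genes was not tested.

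Did the high-fat diet change these genes? No gene passed the test in spleen, in marrow or over both tissues, and no feature of any kind was called (0% in each of these comparisons). By unadjusted p under 0.05, limma gave 1302 of 28794 features in spleen, 1736 in marrow and 3627 over both tissues. Without any diet change, a share of about 0.05 of the features would be given. In spleen 7 of the 8 changes were below 0, with a median of -0.59 log2 against 0.15 over all features, and the lowest adjusted p was 0.771. Both diets of a genotype lay on the same slide. In HDC-/- and STAT4-/- mice, however, the diets also differed in the Y-linked and Xist signals. In these genotypes diet and the apparent difference in sex cannot be told apart. On the arrays labelled STAT4-/-, the signals of the deleted gene and of Stat6 differed by diet too. Stat4 read 3.51 in spleen and 2.74 in marrow on high-fat diet, against 0.56 and 0.41 on control diet. Stat6 read 3.95 and 4.12 on high-fat diet, against 2.57 and 2.34 on control diet. The STAT4-/- diet pairs cannot be told apart from these differences either.

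Cd300e had the largest diet change in spleen, -1.59 log2 (SE 0.57; unadjusted p 0.0190; limma adjusted p 0.771; lower in 3 of 4 pairs). It read -1.29 on high-fat and 1.76 on control diet in HDC-/- mice, -2.74 and 0.11 in STAT4-/- mice, 0.50 and -0.63 in STAT6-/- mice, and -1.14 and 0.44 in WT mice. STAT6-/- mice were thus the only genotype with the higher level on the high-fat diet. Cx3cr1 read -1.60 on high-fat and 2.64 on control diet in HDC-/- mice, -2.89 and -1.36 in STAT4-/- mice, 0.35 and -0.66 in STAT6-/- mice, and -0.72 and 0.38 in WT mice. Its change of -1.46 log2 (SE 0.67, limma adjusted p 0.771) had the same direction in 3 of 4 pairs. Its second probe, which reads the same RNA on the same arrays, gave -1.70. Without the HDC-/- control spleen array the change was -0.54 log2 for Cx3cr1 and -1.10 for Cd300e. With only the WT and STAT6-/- arrays, whose Y-linked signal was alike on both diets, the change was -0.04 log2 for Cx3cr1 and -0.23 for Cd300e. These small values are means of opposite differences. Cx3cr1 differed by -1.10 in WT and 1.02 in STAT6-/- mice, and Cd300e by -1.58 in WT and 1.13 in STAT6-/- mice.

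Eno3 read 1.21 on high-fat and 3.74 on control diet in HDC-/- spleens, 0.10 and 1.73 in STAT4-/-, 1.84 and 1.32 in STAT6-/-, and 1.96 and 2.18 in WT spleens. The pattern by genotype was that of Cd300e and Cx3cr1, with a change of -0.96 log2 (SE 0.44, limma adjusted p 0.771). The Eno3 change was -0.44 log2 without the HDC-/- control spleen array. Nr4a1 showed another pattern, reading 5.47 on high-fat and 4.65 on control diet in HDC-/- spleens, 3.14 and 5.35 in STAT4-/-, 5.44 and 5.06 in STAT6-/-, and 5.47 and 5.89 in WT spleens. Its change of -0.36 log2 (SE 0.46, limma adjusted p 0.815) was above 0 without either of the STAT4-/- spleen arrays (0.26 each). Leaving out an array of a pair takes the whole pair out of the diet change. Treml4 read -0.27 on high-fat and 1.44 on control diet in HDC-/- spleens, -0.24 and 0.19 in STAT4-/-, 0.42 and -0.03 in STAT6-/-, and -0.0014 and 0.36 in WT spleens, so that only the HDC-/- pair differed by over 1 log2. The changes of Treml4, Pou2f2 and Ace were -0.52, -0.53 and -0.64 log2 (limma adjusted p 0.771 each), and that of Spn was 0.06. Without the HDC-/- control spleen array those of Treml4, Pou2f2 and Ace were -0.12, -0.27 and 0.025 log2.

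By genotype, 7 of the 8 genes were lower on high-fat diet in HDC-/- spleens, 6 in STAT4-/- spleens, 1 (Spn) in STAT6-/- spleens and 6 in WT spleens. The median difference over the 8 genes was -2.12 log2 in HDC-/- mice, -1.58 in STAT4-/-, 0.49 in STAT6-/- and -0.39 in WT mice. With 1 pair per genotype in each tissue, the difference between genotypes was not tested. Marker lists of other cells differed as well. The mean level of the mature neutrophil list was 5.15 on high-fat and 3.87 on control diet in HDC-/- spleens, 5.88 and 5.06 in STAT4-/-, 4.74 and 5.10 in STAT6-/-, and 4.71 and 4.76 in WT spleens. That of the natural killer cell list was -1.04 on high-fat and 1.61 on control diet in HDC-/- spleens, -3.43 and -0.82 in STAT4-/-, -0.16 and -0.70 in STAT6-/-, and 1.27 and 1.52 in WT spleens. The part of these cells in the diet differences was not tested.

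**Figure D3:**
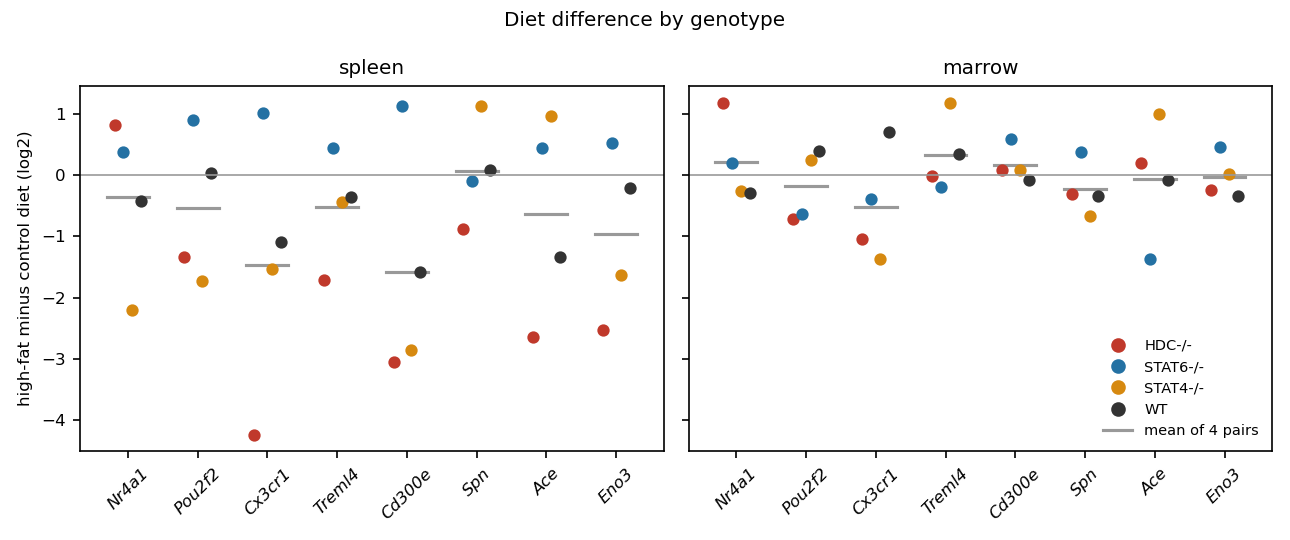
Difference between high-fat and control diet (log2) for each gene in spleen (left) and marrow (right), with 1 point per genotype and a grey line at the mean of the 4 pairs. In spleen the STAT6-/- points lie above 0 for 7 genes and the HDC-/- points below 0 for 7; in marrow the means lie between -0.53 and 0.33.

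In marrow the diet changes ran from -0.53 log2 (Cx3cr1, SE 0.67) to 0.33 (Treml4, SE 0.36); 5 of the 8 were below 0, and the median was -0.05, against 0.11 over all features. Over both tissues all 8 changes were below 0, from -1.0 (Cx3cr1, SE 0.47) to -0.08 (Nr4a1, SE 0.32), with limma adjusted p of 0.387 to 0.907. The diet change did not differ between the tissues by the test of that difference for any of the 8 genes or for any feature (0% called). It was largest for Cd300e, at -1.75 log2 (SE 0.80; unadjusted p 0.0540; limma adjusted p 1.00). None of the further nonclassical monocyte genes passed in spleen either: 12 of 15 had a change below 0 (median -0.71 log2), led by Cd274, which encodes the checkpoint ligand PD-L1 (-1.47, SE 0.47, limma adjusted p 0.771).

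How did the genotypes differ? No gene of the 8 passed in any genotype comparison, where limma called 0.0174% of all features for STAT4-/- against WT, 0.0313% for STAT6-/- against WT, 0.153% for HDC-/- against WT and 0.0104% for HDC-/- against STAT6-/-. Nr4a1 had the largest change in HDC-/- against WT mice, -1.02 log2 (SE 0.46; 95% interval -2.04 to -0.0012; unadjusted p 0.0498; limma adjusted p 0.457), and was lower in 4 of 4 matched pairs. It read 5.47 on high-fat and 4.65 on control diet in HDC-/- spleens against 5.47 and 5.89 in WT spleens, and 3.71 and 2.54 in HDC-/- marrow against 4.40 and 4.69 in WT marrow. The difference from WT was -0.0017 log2 in the high-fat spleen pair and -0.69 in the high-fat marrow pair, against -1.23 and -2.16 in the control-diet pairs, where the HDC-/- arrays also had the low Y-linked signal. With the high-fat arrays alone the change was -0.34 log2, and without the HDC-/- control spleen array it was -0.63. The 12 NR4A partners and immediate early genes were all below 0 in the same comparison (median -1.28 log2, against -0.07 over all features), and none was called. Their mean level was 0.17 and -0.50 on the control-diet spleen and marrow arrays of HDC-/- mice and 1.2 to 2.60 on the other arrays; the part of this in the Nr4a1 difference was not tested. HDC-/- and WT lay on different slides and cannot be told apart from them.

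STAT4-/- and WT arrays shared slides, as did HDC-/- and STAT6-/- arrays. On the arrays labelled STAT4-/-, Nr4a1 was lower than in WT in 4 of 4 pairs (-0.92 log2, SE 0.46, limma adjusted p 0.520). It read 3.14 and 5.35 in spleen on high-fat and control diet and 4.0 and 4.26 in marrow. The change was -0.31 without the STAT4-/- high-fat spleen array and -1.54 without the STAT4-/- control spleen array. The control-diet STAT4-/- arrays had the low Y-linked signal. The WT arrays are the same as in the HDC-/- comparison, so the Nr4a1 differences are not independent. In each tissue the WT control array had the highest Nr4a1 level (5.89 in spleen and 4.69 in marrow). Of the 12 NR4A partners and immediate early genes, 11 were below 0 as well (median -0.64 log2), and none was called. Treml4 was also lower than in WT in 4 of 4 pairs (-0.34, SE 0.36; limma adjusted p 0.762). The 8 genes ranged from -0.92 to 0.31 log2 there (median -0.49, against 0.20 over all features). Between HDC-/- and STAT6-/- mice Pou2f2 had the largest change, 1.06 log2 (SE 0.42; unadjusted p 0.0304; limma adjusted p 0.733; higher in 3 of 4 pairs). It was 0.58 log2 without the STAT6-/- control spleen array, 0.48 with the high-fat arrays alone and 0.66 with normexp background correction. In STAT6-/- against WT mice the changes ran from -0.62 log2 (Pou2f2) to 0.56 (Cd300e). Nr4a1 was lower there in 3 of 4 pairs (-0.30 log2, SE 0.46). Of the 12 NR4A partners and immediate early genes, 10 were below 0 there (median -0.34 log2) and none was called.

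None of the 8 genes passed the test of whether a genotype difference varied between the tissues, where limma called 0% of features for STAT4-/-, 7.44% for STAT6-/- and 16.4% for HDC-/-, each against WT. The largest values were -2.66 log2 for Cx3cr1 in STAT4-/- (SE 1.34, limma adjusted p 0.301) and 2.34 for Ace in HDC-/- (SE 1.13, limma adjusted p 0.210), and the medians of all features were 0.61 log2 for STAT4-/-, 0.43 for STAT6-/- and 0.58 for HDC-/-.

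Do the 8 genes vary together? Within spleen, over 8 arrays, 24 of their 28 pairs had a positive Pearson r (median 0.61), while in marrow the median was -0.04 and 13 of 28 were positive. With exact two-sided permutation tests, adjusted over the 56 pairs of both tissues, 6 pairs passed, all within spleen and all among Cx3cr1, Treml4, Cd300e and Eno3 (r 0.88 to 0.95, adjusted p 0.0375 to 0.0472). Cx3cr1 and Eno3 had the highest r, 0.95 (exact permutation p 0.00169, adjusted p 0.0375; Spearman rho 0.88, exact permutation p 0.00724, adjusted p 0.120). By Spearman's rho no pair passed (lowest adjusted p 0.0639, for Treml4 and Cd300e, rho 0.95). Leaving out the 2 arrays farthest from the median of the first gene of a pair gave r of 0.59 to 0.94 for the 6 pairs. With Cx3cr1 or Cd300e first, these were the HDC-/- control and STAT4-/- high-fat spleen arrays. With Treml4 first, they were both HDC-/- spleen arrays, so the STAT4-/- high-fat array stayed in. The r of 0.94, for Treml4 and Cd300e, is from such a pair. Arrays here share genotype, diet and slide, and the test treats them as exchangeable.

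The promoters of these 4 genes are shown because their levels moved together over the spleen arrays. Each is 300 bases from RefSeq on build GRCm38.p6, 250 before and 50 after the start of transcription, read 5′ to 3′ on the strand of the gene, with capitals on matches to CACCC on either strand (GGGTG on the printed strand), the core bound by KLF factors such as KLF2.
Cx3cr1, chr9:120068247-120068546, minus strand: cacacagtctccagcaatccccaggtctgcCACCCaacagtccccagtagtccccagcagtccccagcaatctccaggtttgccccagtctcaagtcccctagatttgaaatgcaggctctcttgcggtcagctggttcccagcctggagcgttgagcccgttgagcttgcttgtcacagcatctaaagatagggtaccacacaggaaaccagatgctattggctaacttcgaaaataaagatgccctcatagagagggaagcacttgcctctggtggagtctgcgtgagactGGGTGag
Treml4, chr17:48264045-48264344, plus strand: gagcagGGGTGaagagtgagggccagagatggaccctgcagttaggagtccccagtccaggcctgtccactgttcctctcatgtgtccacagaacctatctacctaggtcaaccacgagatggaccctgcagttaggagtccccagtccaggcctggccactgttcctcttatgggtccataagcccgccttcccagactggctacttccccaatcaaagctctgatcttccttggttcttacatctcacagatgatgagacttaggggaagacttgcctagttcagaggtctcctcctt
Cd300e, chr11:115061990-115062289, minus strand: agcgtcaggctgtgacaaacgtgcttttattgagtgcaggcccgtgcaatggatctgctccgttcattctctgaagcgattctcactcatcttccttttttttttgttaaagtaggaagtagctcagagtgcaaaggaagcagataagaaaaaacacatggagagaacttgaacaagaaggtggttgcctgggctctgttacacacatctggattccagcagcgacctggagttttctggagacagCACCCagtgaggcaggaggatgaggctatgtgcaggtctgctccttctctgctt
Eno3, chr11:70656926-70657225, plus strand: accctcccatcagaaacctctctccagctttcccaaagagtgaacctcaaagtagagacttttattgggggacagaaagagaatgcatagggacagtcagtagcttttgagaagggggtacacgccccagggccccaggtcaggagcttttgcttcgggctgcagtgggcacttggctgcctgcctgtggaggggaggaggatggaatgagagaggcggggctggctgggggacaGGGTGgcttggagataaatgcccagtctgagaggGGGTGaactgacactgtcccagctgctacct
The 8 genes have 9 promoters in the table, since Ace has 2. CACCC was found in 8 of the 9, in all but that of Nr4a1, and in 57.5% of all 32851 promoters of the same length. AAAGGTCA, the element bound by single NR4A receptors, was in none of the 9 and in 1.51% of all promoters. The octamer ATGCAAAT, bound by Oct2, was in none of the 9 and in 1.74% of all, and TTGCGCAA, a C/EBP site, was in none of the 9 and in 0.183% of all. The motifs were searched on both strands and do not overlap each other, and a match is a run of letters and not a shown binding site.

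The mean level of the 8 genes on an array ran from -0.42 (STAT4-/- high-fat; median 0.63) to 2.48 (HDC-/- control) in spleen, and from -0.27 (median -0.09) to -0.01 in marrow. Over the 8 spleen arrays it went with the mean of the further nonclassical monocyte list (r 0.86, and 0.64 without the 2 arrays at the ends) of the natural killer cell list (r 0.81, and 0.51), of the plasmacytoid dendritic cell list (r 0.80, and 0.12) and of the B cell list (r 0.74, and 0.28), and against the mature neutrophil list (r -0.96, and -0.68) and the pair Itgam and Ptprc (r -0.93, and -0.84). With the classical monocyte list r was 0.40, and 0.82 without those 2 arrays. Over the 8 marrow arrays r was 0.93 with the further nonclassical monocyte list. It was 0.81 with the CX3CR1, CSF1R and Notch axis and 0.79 with other genes of the families of the 8 genes. The high r was thus not particular to the nonclassical monocyte list. With the natural killer cell list r was 0.07. It was 0.39 and 0.42 with the mature neutrophil list and the pair Itgam and Ptprc, whose signs were thus opposite in the tissues. These are descriptions over arrays that share tissue and slides. Centred within each tissue over all 16 arrays, the named genes most like the mean of the 8 genes, among 12797 compared, included Arhgef10l (r 0.95), Plxnb2 (0.92), Clec4a1 (0.91) and Mef2a (0.91). Those most like Treml4 were Tlr7 (0.83), Grk5 (0.80), Smim14 (0.79), Bco2 (0.79) and Il10ra (0.78).

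**Figure D4:**
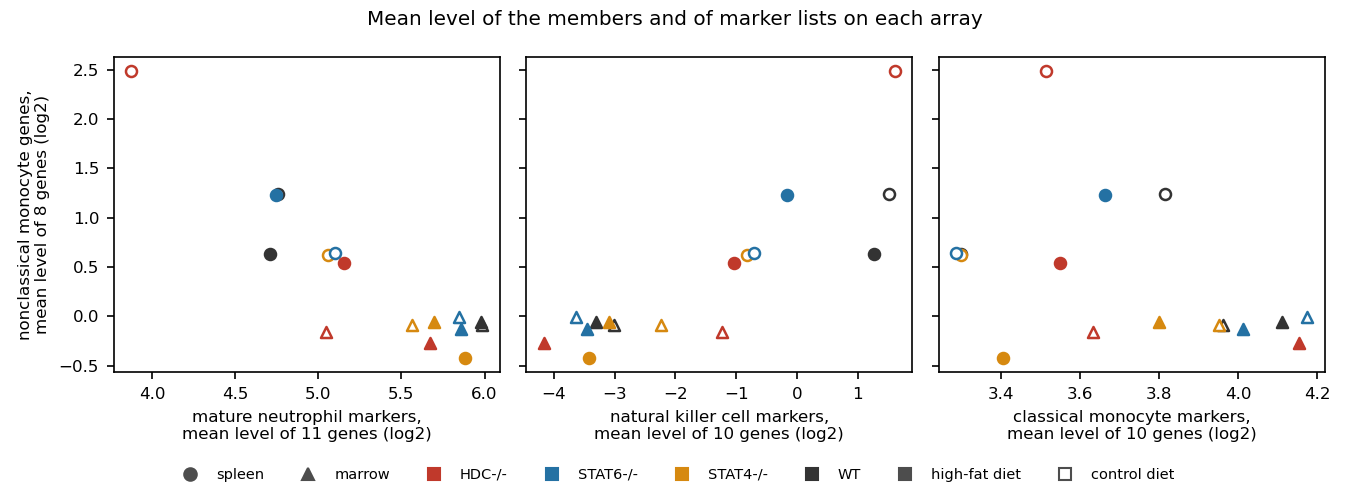
Mean level of the 8 nonclassical monocyte genes (vertical, log2) against the mean level of mature neutrophil, natural killer cell and classical monocyte markers (horizontal, log2) on the 16 arrays, with circles for spleen, triangles for marrow, filled for high-fat and open for control diet. The HDC-/- control spleen array lies at 2.48 and the STAT4-/- high-fat spleen array at -0.42; the marrow arrays lie between -0.27 and -0.01.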

How the data were processed

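The authors read Cy3 intensity on 16 Agilent arrays with Agilent Feature Extraction 11.0.1.1, per the file headers; the deposited intensity of each spot is background-subtracted and spatially detrended, and arrays were not scaled to each other. The array design is on build mm9, per the file headers, so no gene coordinates are given beside the RefSeq promoters of build GRCm38.p6.

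Groups were taken from the labels. Of 39429 probes, 27228 (69.1%) were named through RefSeq accessions, and 305 with an outlier flag on some array were left out; Hdc, whose probe is one of them, is given from the 15 arrays with a usable spot. From the log2 of each intensity, the array's 75th percentile was subtracted. The brightest probe of a gene was used, and features well above background on at least 2 arrays were kept. No spot was saturated. limma 3.58.1 (R 4.3.3) fitted 8 means, 1 per genotype and tissue, with a separate diet effect for spleen and marrow, which left 6 residual degrees of freedom. Tests were two-sided and p-values were adjusted by Benjamini-Hochberg over 28794 features; calls are at an adjusted p under 0.05. Nothing in the labels says whether pools are independent, so p-values measure the spread between these arrays only.

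The 8 genes, the further lists and the cell markers were chosen with earlier results of these data known. From each further list, up to 3 genes called higher and 3 called lower with the largest change were to be named; Csf1r, Cd274 and Xcr1 were picked after their values were seen. Some genes that these rules name are not reported here. On simulated data, 200 of 28794 features were changed. With changes of 2 log2, the fit recovered 87% of changed features between tissues, 65.5% between diets in spleen and 62.5% between HDC-/- and WT. With changes of 1 log2 it recovered 0% in each. In the real data 32% of features were called between tissues, which makes the adjusted threshold less strict there. The simulated rates therefore do not carry over to the tissue comparison. The simulated noise was normal and independent, with spreads shuffled among features and no outlying arrays. The rates for diet and genotype hold for such noise only. Background correction by normexp (offset 50) used median spot and background signals, since no mean signals were given. Figures were drawn with matplotlib 3.10.9.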

Additional observations from a re-analysis of the deposited data

Results flagged for a closer look

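Among 48 sets of 4 or 8 arrays of the same tissue, or of the same tissue and diet, 7 held an array whose gap to its nearest neighbour was large for the range of the set; chance gives about 1 in 20 sets. Nr4a1 read 3.14 on the STAT4-/- high-fat spleen array, where the nearest spleen array read 4.65 and the nearest high-fat spleen array 5.44, and it stood apart in both sets. Nr4a1 also read 2.54 on the HDC-/- control marrow array, against 3.71 on the nearest marrow array. These are the 2 arrays that correlated better with the other tissue.

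The HDC-/- control spleen array stood apart upward for Treml4 (1.44, the nearest spleen array reading 0.42), Ace (0.79, against -1.42) and, among the control-diet spleen arrays, Spn (3.95, against 2.78). On that array the mean of the mature neutrophil list was 3.87, the lowest of all arrays, and Itgam read 3.13. Pou2f2 read -4.11 on the STAT6-/- high-fat marrow array, against -2.70 on the nearest high-fat marrow array; this array also had the lowest share of probes well above background (59.7%).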

How the results depend on the processing

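Pou2f2, Cd300e and Eno3 were called higher in spleen under every alternative run and without any single array. Between 4 and 5 of the 8 genes were called under the alternatives, and 3 to 5 when 1 array was left out. No diet or genotype comparison called any of the 8 genes under any alternative. Over single genes, 552 values kept direction and side of the threshold, 23 lost the call, 2 gained it and 27 changed sign; none of the reversed values was called. A paired fit of the tissue comparison, with a block for each combination of genotype and diet and chosen after seeing the data, called 9407 features and 5 of the 8 genes, with no call of the 8 changed; the sources used here do not say whether spleen and marrow came from the same mice. The numbers in the titles mark the tissues and pair no arrays.

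Features called between the tissues numbered 15667 with normexp, 17.8% of them higher in spleen against 46.5% in the fit reported, with the median of all features at -0.46 log2; flooring dim signals gave 35.2% higher (median -0.24), and the WT and STAT6-/- arrays alone gave 36.8% higher (median -0.35). The changes of the 8 genes under these settings are read against those medians. Leaving out 1 array gave 5760 (without WT control marrow) to 10719 features. Genotype terms shared by both tissues with slide as a random block, chosen after seeing the data, gave 8757.

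The Cx3cr1 tissue change was 0.14 with normexp, 0.52 with the mean of its probes, 1.1 with the other probe, 0.65 with WT and STAT6-/- arrays alone, 0.040 without the 2 arrays nearer the other tissue, and -0.52 to 0.40 without 1 array. For diet in spleen, WT and STAT6-/- arrays alone gave 0.46 for Pou2f2, 0.039 for Treml4, 0.16 for Eno3 and -0.0065 for Spn; without the 2 arrays nearer the other tissue Nr4a1 had 0.26 and Spn -0.30, and with quantile normalization Spn had -0.016. Without 1 array Nr4a1 ranged from -0.75 to 0.26, Spn from -0.30 to 0.37 and Ace from -1.18 to 0.025. The Cx3cr1 diet change in marrow was 0.15 with WT and STAT6-/- arrays alone and 0.086 with the other probe. Nr4a1 in STAT6-/- against WT was 0.026 with high-fat arrays alone. The cause of these changes was not tested.

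Normexp called 1 feature for diet in spleen and 1 over both tissues. STAT4-/- against WT called 16 features with normexp, 13 with floored signals, 18 with shared genotype terms, 1 with high-fat arrays alone and 3 to 8 without 1 array. STAT6-/- against WT called 16 with normexp, 1 with high-fat arrays alone and 3 to 16 without 1 array. HDC-/- against WT called 88 with normexp, 69 with a trended and robust prior, 1 with high-fat arrays alone, 19 without the 2 arrays nearer the other tissue and 7 to 239 without 1 array. HDC-/- against STAT6-/- called 13 with quantile normalization, 13 with normexp, 5 with the mean of probes, 9 with floored signals, 8 with the trended and robust prior, 9 with shared genotype terms, 0 with high-fat arrays alone and 2 to 14 without 1 array. The difference between tissues for STAT6-/- called 0 features with quantile normalization, normexp, floored signals or the trended prior and 0 to 3030 without 1 array; that for HDC-/- called 0 with quantile normalization, normexp or floored signals, 2215 without the 2 arrays nearer the other tissue and 0 to 5993 without 1 array.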

Other observations

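Of 18 measured genes of the same families as the 8 genes, 3 rose in spleen and 4 fell, beside the 14.9% of all features called higher and the 17.1% called lower. The B cell coactivator gene Pou2af1, whose product binds Oct1 and Oct2 on DNA, rose by 2.71 log2 (SE 0.57, limma adjusted p 0.00680), while Pou2f1 (-0.20, SE 0.20) and Pou2f3 (0.02, SE 0.21) did not pass. Among the TREM genes, Trem1 (-1.99, SE 0.35, limma adjusted p 0.00313), Trem3 (-1.24, SE 0.32) and Treml2 (-0.98, SE 0.26) were lower in spleen, against the change of 0.58 for Treml4, which did not pass. The neuronal enolase gene Eno2 rose by 1.22 log2 (SE 0.25, limma adjusted p 0.00637) beside Eno3, while Eno1, the enolase of most tissues, fell by 0.65 (SE 0.21, limma adjusted p 0.0384). None of the 6 measured genes of the CD300 family other than Cd300e passed; of these Cd300lb had the largest change (-0.86 log2, SE 0.32, limma adjusted p 0.0626).

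Of the features whose genotype difference varied between the tissues, 2136 of 2142 were upward for STAT6-/- and 4717 of 4724 for HDC-/-, each against WT, and none was left with quantile normalization.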
